A study of Homo sapiens with 3 samples.

Results

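The long arms of chromosomes 21 and 22, the shortest autosomes, were described by the peaks of 8-oxo-7,8-dihydro-2'-deoxyguanosine (8-oxodG) that lay on them. The peaks were taken by position alone, as those with a summit at or beyond 15 Mb on either chromosome (build hg18). This gave 806 of the 23641 peaks in the list, 318 on 21q and 488 on 22q. Before the boundary lay 22 peaks of chromosome 21, of which 13 were on the long arm, and 2 of chromosome 22, both on the long arm. The band 22q11.1, of the centromeric stain class, reaches past the boundary and holds 6 of the peaks described. The peaks came from MCF10A, a human breast epithelial cell line that does not form tumours, grown in medium with serum and arrested in G0, where cells do not divide, with no treatment. Sheared DNA carrying 8-oxodG had been enriched with an antibody before sequencing, an assay named DIP-seq (DNA immunoprecipitation and sequencing). The 3 samples, all of this 1 group and from 2 experiments, share 1 list, which holds no value per sample. No value below therefore has a replicate error and no difference could be tested. Intervals are 95% intervals for counting error or, for medians, for the rank of single peaks. They treat peaks as independent, which peaks that gather in places are not.

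8-oxodG forms when reactive oxygen species attack guanine, the base most easily oxidised. It can pair with adenine and so lead to mutation, and base excision repair, begun by the glycosylase OGG1, removes it. Both chromosomes are acrocentric, with very short, repeat-rich short arms that carry ribosomal RNA genes. Chromosome 21 is known as poor in genes, above all in the part of its long arm nearest the centromere, and chromosome 22 as rich in them. Giemsa bands mark this layout, since dark bands are on the whole poorer in genes and replicate later than light ones. In the RefSeq gene table chromosome 21 was poor in genes beside chromosome 22. In genes of all types per Mb it was near chromosomes 14, 15 and 20, given below. Chromosome 21 had 846 genes of all types, or 24.8 per sequenced Mb, of which 239 coded for protein (6.99 per Mb). Chromosome 22 had 1333, or 38.2 per Mb, of which 451 coded for protein (12.9 per Mb). Promoters, taken as 250 bases before to 50 after a gene's start, had a median of 57.5% G and C on chromosome 21 (488 promoters) and 63.0% on chromosome 22 (668 promoters). Over all promoters the median was 58.7%. The gene counts cover whole chromosomes of a later build, while the sequenced Mb are those of hg18. The values per Mb thus mix builds and are approximate. Genes and promoters were not placed on the peaks.

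Peaks were denser on 22q. The 318 peaks of 21q stood in 31.9 Mb of sequence, a density of 9.96 per Mb (8.89 to 11.1). The 488 peaks of 22q stood in 34.3 Mb, a density of 14.2 per Mb (13 to 15.6). The ratio was 1.43 (1.24 to 1.65), and both arms lay above the 8.35 per Mb of the whole list. Peaks covered 0.537% of the sequence of 21q and 0.817% of that of 22q. Among the 41 arms with at least 1 Mb of sequence, each taken whole, 22q ranked 5 and 21q ranked 11 in density.

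The other acrocentric long arms were sparser than both. Density was 7.61 per Mb on 14q, 6.82 on 15q and 6.15 on 13q. The ratio of 21q to these was 1.31 (1.14 to 1.50), 1.46 (1.27 to 1.68) and 1.62 (1.41 to 1.86), and that of 22q was 1.87 (1.66 to 2.10), 2.09 (1.84 to 2.36) and 2.31 (2.05 to 2.61). Over whole chromosomes, genes of all types stood at 25.1 per Mb on chromosome 14, 25.6 on 15, 16.1 on 13 and 24.8 on 20. Chromosome 21 had 24.8 and chromosome 22 had 38.2. Protein-coding genes stood at 6.85, 7.59, 3.54 and 9.02 per Mb in the same order, against 6.99 on 21 and 12.9 on 22. These gene values mix builds, as above. The part of gene density in the density of peaks was not tested. Both arms of the small chromosome 19 were denser than 22q, at 21.8 peaks per Mb on 19p and 28.5 on 19q. Chromosome 20 had 14.1 peaks per Mb, and the ratio of 22q to it was 1.01 (0.903 to 1.13). The local background, described with the pileup below, was higher on chromosome 20 than on 21q or 22q.

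The arms also differed in how the peaks were laid out. Along 21q the counts were low near the centromere and on the whole higher further out, with some jumps between windows and lower counts again after 43 Mb. The 8 windows of 1 Mb from 15 to 23 Mb held 3, 6, 7, 6, 2, 1, 1 and 5 peaks. The next 8, to 31 Mb, held 3, 6, 6, 4, 9, 6, 9 and 11. From 31 to 39 Mb the windows held 7, 17, 7, 8, 11, 10, 9 and 18 peaks. The last 8, to the end, held 15, 19, 22, 22, 19, 16, 17 and 16. The lowest counts, of 1 each, thus lay at 20 and 21 Mb in 21q21.1, and the highest, of 22 each, at 41 and 42 Mb. The Spearman correlation between density and position was 0.863 over 32 windows, and 0.795 between a window and the next over 31 pairs. These are descriptions of neighbouring windows of 1 list.

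**Figure D1:**
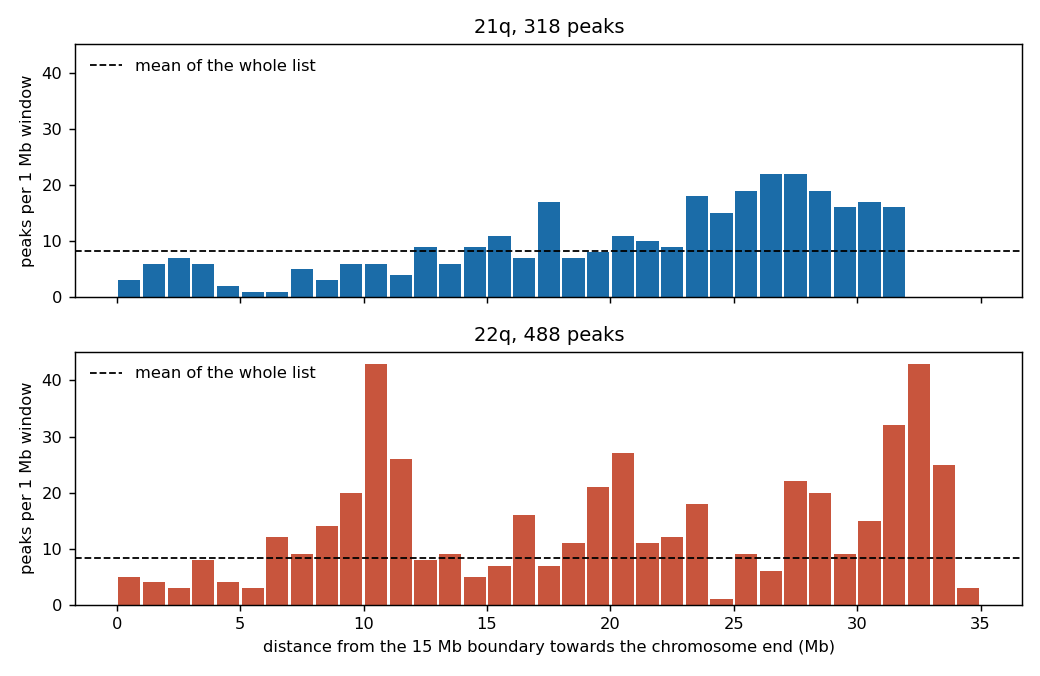
Number of 8-oxodG peaks in each 1 Mb window (y axis) against the distance from the 15 Mb boundary (x axis, Mb) on 21q (top) and 22q (bottom), with the mean of the whole list, 8.27 peaks per window, as a dashed line. Counts on 21q climb to 22 near the end, while 22q has separate blocks of up to 43 peaks with low windows between them.

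On 22q the counts came in blocks. The 6 windows from 15 to 21 Mb were low, with 5, 4, 3, 8, 4 and 3 peaks. A first block followed, with 12, 9, 14, 20, 43 and 26 peaks in the windows from 21 to 27 Mb. The 4 windows from 27 to 31 Mb were low again, with 8, 9, 5 and 7. Counts of 16, 7, 11, 21, 27, 11, 12 and 18 led to 39 Mb, where a single peak lay in the window from 39 to 40 Mb. The remaining windows held 9, 6, 22, 20, 9, 15, 32, 43, 25 and 3 peaks, the last of these with 0.570 Mb of sequence. The Spearman correlation between density and position was 0.411 over 35 windows, and 0.407 between a window and the next over 34 pairs. The mean step from 1 window to the next was 8.59 peaks on 22q and 2.94 on 21q.

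Window counts of 22q were higher on average and had the higher variance for their mean. They averaged 13.9 ± 10.7 (SD, 35 windows) with a median of 11, against 9.94 ± 6.25 (SD, 32 windows) with a median of 8.5 on 21q. The mean difference was smaller than the spread between windows of either arm. The variance was 8.23 times the mean on 22q and 3.93 times on 21q, with approximate chi-square intervals of 5.38 to 14.1 and 2.52 to 6.94, which overlap. The ratio was 4.86 over the 2844 windows of the list, 3.40 on 14q, 2.99 on chromosome 20, 1.79 on 15q and 1.76 on 13q. Windows with 20 or more peaks numbered 10 of 35 on 22q and 2 of 32 on 21q, against 5.63% in the whole list. Windows with under 5 peaks numbered 6 on each arm, against 26.4% in the whole list. On 22q, 6 windows stood above the highest of 21q and held 40.2% of its peaks, while 13 stood under the median window of 21q.

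**Figure D2:**
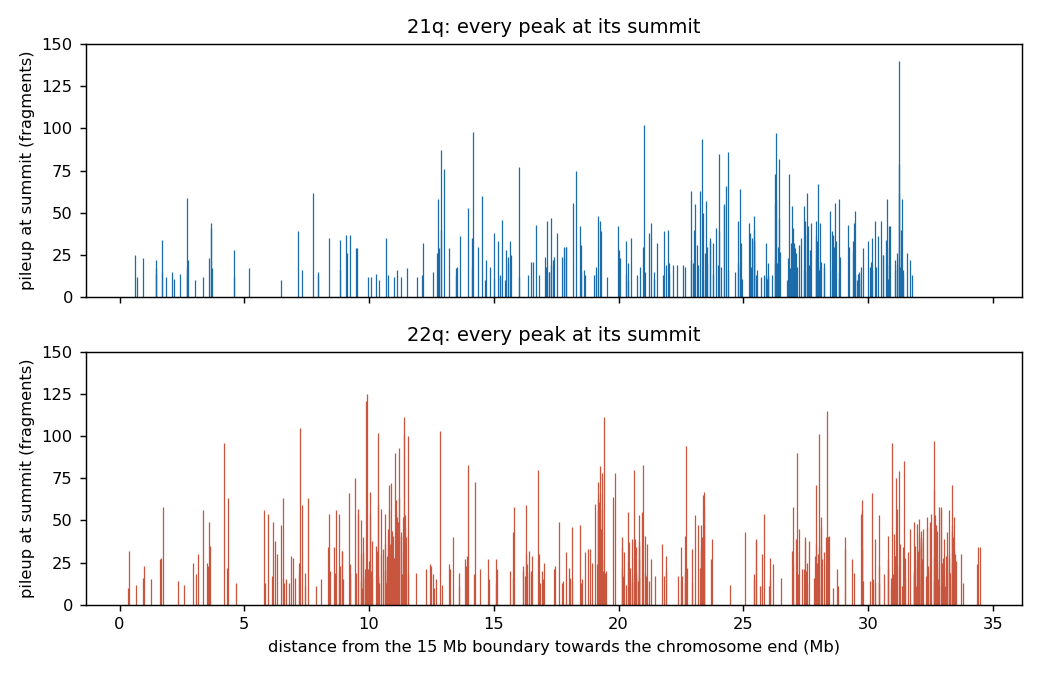
Every peak drawn at its summit, by distance from the 15 Mb boundary (x axis, Mb) and by pileup (y axis, fragments), on 21q (top) and 22q (bottom). Peaks grow denser towards the end of 21q, whose tallest peak has a pileup of 140, and stand in blocks on 22q, whose tallest has 125.

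The 15 Mb next to the boundary set the arms apart. Before 30 Mb, 21q had 74 peaks, or 4.93 per Mb (3.87 to 6.19), and 22q had 173, or 11.7 per Mb (10.01 to 13.6). The ratio there was 2.37 (1.79 to 3.15). From 30 Mb to the end, 21q had 244 peaks, or 14.4 per Mb (12.7 to 16.3), and 22q had 315, or 16.2 per Mb (14.4 to 18.1), a ratio of 1.12 with an interval that takes in 1 (0.947 to 1.33). The outer part of 21q was 2.92 times as dense as its inner part (2.24 to 3.84), and that of 22q 1.38 times (1.15 to 1.67). The 30 Mb mark was chosen after the window counts were seen.

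Counted back from the chromosome ends, in steps of 5 Mb, 21q had 18.4, 16.4, 10.4, 8.40, 4.80 and 3.40 peaks per Mb, with 4.63 in the 1.94 Mb that remained. Over the same steps 22q had 25.4, 12.4, 14.2, 12.4, 19.6 and 9.80, with 5.34 in the 4.49 Mb that remained. Only in the fifth and the sixth of these steps did the intervals not overlap. In the fifth, 20 to 25 Mb from the end, they were 3.08 to 7.14 on 21q and 15.9 to 23.9 on 22q. In the outermost 5 Mb they overlapped at their edges (14.8 to 22.6 on 21q and 21.07 to 30.2 on 22q). The second was the only step of these in which 21q had the higher value.

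By Giemsa band, density on 21q was lowest in the darkest band and higher in each band further out, save for 21q22.12. The band 21q21.1 (stain class gpos100, the darkest), home of the neural adhesion gene NCAM2, had 29 peaks in 7.60 Mb, or 3.82 per Mb (2.56 to 5.48). The light 21q21.2 (class gneg, not stained) had 5.52 per Mb (3.15 to 8.96). The dark 21q21.3 (gpos75) holds APP, the gene of the amyloid precursor protein, and BACH1, a repressor of genes of the oxidative stress response, and had 7.45 (5.19 to 10.4). The stretch of 21q11.2 beyond the boundary, 0.300 Mb, held no peak, which by counting error allows up to 12.296 per Mb.

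The rest of the arm lies in 21q22. Density was 10.2 per Mb (7.41 to 13.8) in 21q22.11, the band of SOD1, the cytosolic superoxide dismutase, and of the interferon receptor genes IFNAR1 and IFNAR2. It was 9 (5.33 to 14.2) in 21q22.12, the band of the blood transcription factor RUNX1, and 13.16 (8.52 to 19.4) in 21q22.13, that of the kinase DYRK1A. It reached 17.9 (13.25 to 23.5) in 21q22.2, with the adhesion gene DSCAM and the ETS factor genes ERG and ETS2. The terminal band 21q22.3, with TFF1, a secreted trefoil peptide of epithelia, COL6A1, a collagen gene, and U2AF1, a splicing factor gene, held 102 peaks, or 18.4 per Mb (15.01 to 22.34). Neighbouring bands of 21q22 had overlapping intervals, whereas 21q22.2 and 21q22.3 lay clear of 21q21.1, 21q21.2 and 21q21.3.

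**Figure D3:**
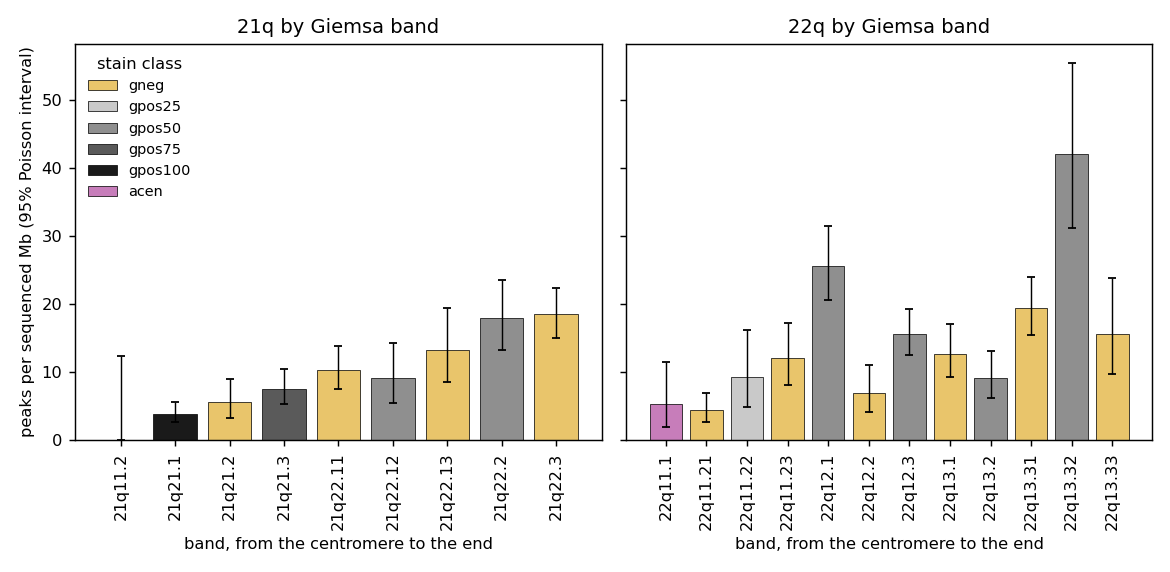
Peaks per sequenced Mb (y axis) in each Giemsa band of 21q (left) and 22q (right), coloured by stain class, with exact 95% Poisson intervals as bars. On 21q the bands with a peak range from 3.82 in 21q21.1 to 18.4 in 21q22.3, while on 22q the highest are 22q13.32 at 42.02 and 22q12.1 at 25.6, both of class gpos50.

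On 22q the bands had no such order. Density was 5.22 per Mb (1.91 to 11.4) in 22q11.1, beside the centromere, and 4.34 (2.57 to 6.85) in 22q11.21. That light band is lost in part in DiGeorge syndrome and holds TBX1, a factor of heart development, and DGCR8, a partner in microRNA processing. The band 22q11.22, with the immunoglobulin lambda genes, had 9.23 (4.77 to 16.1), and 22q11.23, with BCR and the chromatin remodelling gene SMARCB1, had 12 (8.10 to 17.1). The densest window of the first block lay in 22q12.1, the band of the checkpoint kinase gene CHEK2 and of the transcriptional coregulator gene MN1, at 25.6 per Mb (20.6 to 31.3) from 92 peaks. Its neighbour 22q12.2, the band of NF2 and EWSR1, a tumour suppressor and an RNA-binding protein, had 6.92 (4.10 to 10.9) from 18.

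In the outer bands of 22q density was lowest in 22q13.2 and highest in 22q13.32. It was 15.6 per Mb (12.4 to 19.3) in 22q12.3, with the myosin gene MYH9, the protease inhibitor gene TIMP3 and the APOL cluster. It was 12.6 (9.15 to 17.0) in 22q13.1, with the APOBEC3 cytidine deaminase cluster and SOX10, a factor of neural crest cells. In 22q13.2, with the histone acetyltransferase gene EP300, it was 9.12 (6.16 to 13.03). It was 19.3 (15.4 to 23.9) in 22q13.31, with the lipid-sensing receptor gene PPARA, and 42.02 (31.2 to 55.4) in 22q13.32, where 50 peaks lay in 1.19 Mb. The terminal 22q13.33, with the synaptic scaffold gene SHANK3, had 15.5 (9.61 to 23.7), so the densest band was next to the last. The gene names give the bands' known content, and no peak was assigned to a gene.

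Giemsa-negative bands had nearly the same density on both arms, at 12.5 per Mb on 21q (10.8 to 14.5, 186 peaks) and 11.7 on 22q (10.1 to 13.331, 214 peaks). The ratio of 22q to 21q in them was 0.930 (0.761 to 1.14), below 1 but with an interval on both sides of it. In bands of class gpos50 it was 1.34 (1.02 to 1.78), from 19.0 per Mb on 22q (16.7 to 21.5, 256 peaks) and 14.2 on 21q (11.0 to 18.0, 68 peaks). The darkest classes, gpos75 and gpos100, occur on 21q alone, where they held 35 and 29 peaks at 7.45 and 3.82 per Mb. On 22q the grey gpos50 bands were 1.63 times as dense as the light ones (1.35 to 1.96), though the 4 bands ranged from 9.12 to 42.02. On 21q the ratio was 1.13 (0.843 to 1.50). Band classes were compared after the band values had been seen.

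Neighbouring peaks stood closer on 22q. Spacing is not independent of density, for which the ratio of 21q to 22q was 0.699. The distance between midpoints of neighbours had a median of 30.2 kb (25.2 to 33.9) on 22q and 49.7 kb (41.1 to 65.3) on 21q, a ratio of 0.609. Quartiles were 10.9 and 75.3 kb on 22q and 19.0 and 124 kb on 21q. The list as a whole had a median of 62.6 kb, chromosome 20 one of 38.9 kb. Within 10 kb lay 108 of the neighbouring pairs on 22q (22.18%) and 47 of those on 21q (14.8%), against 14.5% in the list. Within 1 kb lay 8 pairs on 22q (1.64%) and 2 on 21q (0.631%), against 1.46% in the list. The closest pair of 22q, in 22q11.23, had midpoints 305 bp apart, and that of 21q, in 21q22.2, 909.5 bp. Distances over 300 kb numbered 23 on 22q (4.72%) and 19 on 21q (5.99%), both below the 10.5% of the list.

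**Figure D4:**
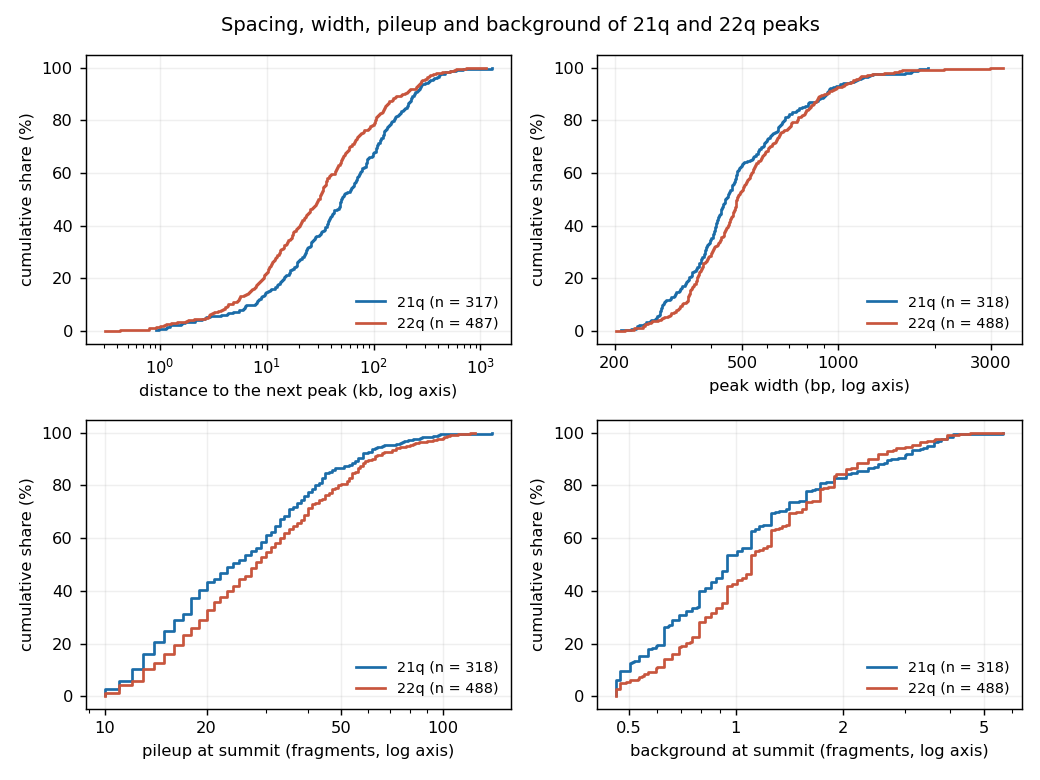
Cumulative share of peaks (y axis, %) by distance to the next peak (kb), width (bp), pileup and background at the summit (fragments) on 21q (blue) and 22q (red), all on log axes. The curves are farthest apart for distance, with medians of 49.7 and 30.2 kb, and the 22q curves lie to the right for width and pileup over most of their range.

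The longest stretches without a peak lay in different settings. On 21q the 3 longest all fell in 21q21.1, of 1.28 Mb (20193169 to 21471751), 0.879 Mb (18707615 to 19586802) and 0.681 Mb (21472021 to 22153082). The first and the third were parted by a single peak. On 22q they were of 1.14 Mb (19671142 to 20807062), centred in the light band 22q11.21, 0.739 Mb (38733628 to 39472353), centred in 22q13.1, and 0.588 Mb (16740475 to 17328974), also in 22q11.21. The band 22q11.21 is known for long repeats of nearly identical sequence, to which short reads map poorly. Mappability was not measured here, and its part in these stretches was not tested.

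Tight groups, of at least 4 peaks with each midpoint within 10 kb of the next, numbered 8 on 22q and 1 on 21q. They held 33 peaks (6.76%) of 22q and 4 (1.26%) of 21q, against 3.48% in the whole list. Groups, like spacing, are not independent of density. All 8 groups of 22q lay in gpos50 bands, with 3 in 22q12.1, 2 in 22q12.3 and 3 in 22q13.32. Bands of class gpos50 held 52.5% of all peaks of 22q. The largest had 5 peaks in 17.3 kb of 22q13.32 (47106665 to 47123915), with pileups of 44, 39, 24, 37 and 35, all of middling height. A group of 4 in 7.44 kb of 22q12.1 (25744118 to 25751556) had pileups of 45, 18, 41 and 18. Close before it, a group of 4 in 20.4 kb of the same band (25702232 to 25722594) was low, with 28, 13, 15 and 29. The third of 22q12.1 (26177972 to 26204548) had 49, 40, 63 and 93, none of them low. In 22q12.3 the groups had 56, 14, 73 and 63 (34164126 to 34189944) and 38, 27, 53 and 16 (35797771 to 35812228). In 22q13.32 the others had 97, 28, 14 and 68 (47631331 to 47641226) and 26, 44, 11 and 22 (47765358 to 47775092). The single group of 21q spanned 12.8 kb of 21q22.3 (46222324 to 46235100) and was taller, with pileups of 62, 79, 140 and 23.

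Inside the 2 densest windows of 22q the peaks were spread over most of the window, though unevenly. In the window at 25 Mb each step of 100 kb held from 1 to 10 of the 43 peaks. Pileups there ran from 12 to 102 with a median of 28, the median of the arm. In the window at 47 Mb, 9 of 10 steps held a peak, with 0 to 9 peaks per step, and pileups ran from 11 to 97 with a median of 37. The background at the summit had a median of 0.975 in the first and 1.38 in the second. In the 2 densest windows of 21q, at 41 and 42 Mb, 7 and 9 of 10 steps held a peak, and the peaks were wider, at medians of 616.5 and 656.5 bp.

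Peaks of 22q were slightly wider. The median width was 481 bp (472 to 505) on 22q and 444.5 bp (428 to 468) on 21q, a ratio of 1.08, with 452 bp in the list. The quartiles, 378 and 657 bp on 22q and 367 and 625 bp on 21q, overlapped almost wholly. Peaks of at least 1 kb made up 7.38% of 22q (36 peaks, 5.22 to 10.1) and 6.92% of 21q (22 peaks, 4.39 to 10.3), against 5.56% in the whole list. On 21q, 21 of these 22 lay beyond 30 Mb, as did 244 of all its 318 peaks. Peaks of at least 1 kb made up 1.35% of those of 21q before 30 Mb and 8.61% beyond it. On 22q the shares were 8.09% and 6.98%. The median width on 21q was 413.5 bp (387 to 439) before 30 Mb and 466.5 bp (435 to 490) beyond it. On 22q it was 480 and 484 bp.

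The widest peaks of 21q were all in 21q22.3. They measured 1909 bp (45879262 to 45881170, pileup 42), 1874 bp (43580165 to 43582038, pileup 37) and 1784 bp (43848488 to 43850271, pileup 58). Their fold enrichment, which is the pileup over the background with 1 added to each, was 9.31, 9.17 and 11.6, and the background at their summits was 3.62, 3.15 and 4.09 fragments. Those of 22q reached 3277 bp in 22q11.23 (22222054 to 22225330, pileup 105, fold 36.3) and 2987 bp in 22q11.22 (20969104 to 20972090, pileup 54, fold 24.4). The third, of 2522 bp, lay in 22q13.31 (45777979 to 45780500, pileup 27, fold 9.01). The fold enrichment of the first pair of 22q was higher than that of the 3 widest of 21q.

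The height of a peak, its pileup, is the number of fragments over the summit. The median was 28 (26 to 30) on 22q and 24 (21 to 28) on 21q, with intervals that overlap, and 25 in the list. Quartiles were 18 and 44.25 on 22q and 16 and 39 on 21q. A pileup of at least 50 was reached by 19.7% of peaks on 22q (96 peaks, 16.2 to 23.5) and 13.5% on 21q (43 peaks, 9.96 to 17.8), against 18.2% in the whole list. A pileup of at least 100 was reached by 11 peaks on 22q and 2 on 21q, where 2.56% of the whole list reached it. Fold enrichment had a median of 12.28 (11.6 to 12.8) on 22q and 10.7 (9.996 to 11.7) on 21q, with 11.7 in the list. The share with a fold of at least 20 was 20.9% and 18.2%, near the 20.3% of the whole list. Among the 41 arms, the median fold of 22q ranked 9 and that of 21q 38, within a range of 10.1 to 13.5.

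The background under the peaks moved with the pileup. At the summit it had a median of 1.10 fragments on 22q (1.07 to 1.13), 0.944 on 21q (0.881 to 1.04) and 1.42 on chromosome 20, with 1.01 in the list. It followed position on 21q, with a median of 0.723 before 30 Mb and 1.10 beyond, and not on 22q, with 1.10 on both sides. Across windows of 21q, the Spearman correlation between density and median background was 0.709, and on 22q it was 0.205. Across peaks, pileup and background had a Spearman correlation of 0.563 on 21q and 0.548 on 22q. A listed peak has a fold enrichment of at least 7.001, so the lowest pileup that can be listed is greater where the background is greater. The part of the background in the density of peaks was not tested, and more copies of a region and more 8-oxodG in it cannot be told apart in this list.

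In ranges of like background the median heights of the arms differed by at most 6 fragments. Under 0.7 fragments of background, the median pileup was 15.5 on 21q (14 to 18, 98 peaks) and 16 on 22q (14 to 19, 91 peaks). From 0.7 to 1.0 it was 21 (17 to 29) and 20 (19 to 23). From 1.0 to 1.4 it was 25 on 21q (19 to 30) and 31 on 22q (25 to 34), and from 1.4 to 2.0 it was 30.5 (23 to 39) and 36 (32 to 41). At 2.0 or more it was 42.5 (39 to 45) and 43 (39 to 48). The intervals overlapped in each of these 5 ranges. Median fold enrichment was higher on 22q in each of them, with overlapping intervals, and differed most from 1.0 to 1.4, where it was 11.9 on 21q (9.47 to 13.8) and 15.3 on 22q (12.27 to 16.4). Fold enrichment is set by pileup and background, so within a range of background it is not a measure apart from the pileup. Median widths also had overlapping intervals in all 5 ranges. They were larger on 22q in each range below 2.0 fragments. At 2.0 or more the order was reversed, with 871.5 bp on 21q (754 to 937) and 818 bp on 22q (711 to 896). Under 0.7 fragments lay 30.8% of the peaks of 21q and 18.6% of those of 22q.

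**Figure D5:**
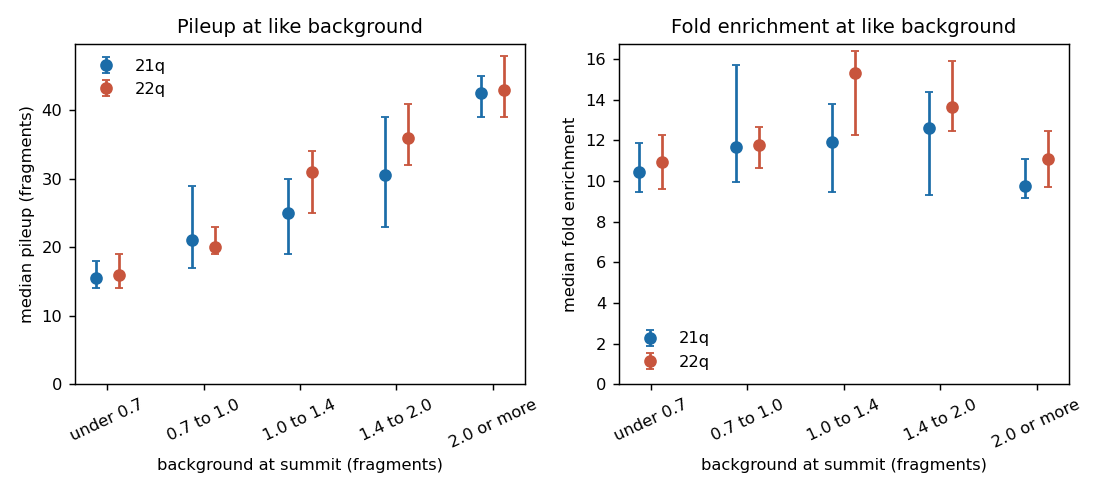
Median pileup (left, fragments) and median fold enrichment (right) of 21q peaks (blue) and 22q peaks (red) in 5 ranges of background at the summit (x axis, fragments), with 95% intervals of the median as bars. The intervals of the arms overlap in each range, with the widest gap in pileup at 1.0 to 1.4, 25 against 31.

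The peaks of highest fold enrichment were scattered over the bands. On 21q the first lay in 21q22.2 (41314628 to 41315190), with a pileup of 97, a fold of 65.2 and rank 9 in the whole list. It stood over a background of 0.503, near the lowest of the list, 0.460. The second lay in the sparse 21q21.1 (22745477 to 22746027), with a pileup of 62 and a fold of 43.1 over the lowest background. The third, in 21q22.3 (46228824 to 46229985), was also the tallest of the arm, with a pileup of 140 and a fold of 40.1 over a background of 2.52. The next were in 21q22.13 (38501223 to 38501938, fold 39.4) and 21q22.11 (31019211 to 31019821, fold 38.3). The other peaks of highest pileup were one of 102 in 21q22.12 (35998376 to 35999658) and one of 98 in 21q21.3 (29171166 to 29172044).

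On 22q the first 5 had folds of 49.6 to 55.0 and lay in 3 bands. The first was in 22q12.1 (24935324 to 24936180), with a pileup of 125, a fold of 55.0 and rank 72 in the list, and was the tallest of the arm. The next were in 22q13.31, with folds of 52.8 (46434565 to 46435371) and 50.7 (45965973 to 45966630). The fourth was in the sparse 22q11.21 (19180224 to 19181009, fold 49.9), and the fifth in 22q12.1 (26400415 to 26401127, fold 49.6). The other peaks of highest pileup had 121 in 22q12.1 (24885726 to 24886515) and 115 in 22q13.31 (43350086 to 43351017). The background at the summits of the first 5 ran from 0.629 to 1.29.

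The peaks nearest to the 15 Mb boundary were these. On chromosome 21 the last peak outside started at 14977702 with a pileup of 20 and a fold of 11.4, and the first inside at 15602050 with a pileup of 25 and a fold of 12.4. On chromosome 22 the last outside started at 14716452 with a pileup of 21 and a fold of 12.32, and the first inside at 15343818 with a pileup of 10, the lowest in the list, and a fold of 7.53.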

How the data were processed

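Genomic DNA was sonicated and immunoprecipitated with an antibody to 8-oxodG, per the labels' protocols. The submitters' processing notes name BWA, SAMtools, bedtools and hg18. No version, role or order is given. For the peak caller, its control and the pooling of the 3 samples, the sources used here say nothing, nor do they give the depth per sample. The authors deposited 1 list with position, width in bp and the pileup, a signal in fragments, per the file headers. Fold enrichment, −log10 p and −log10 q were deposited without their decimal points. Fold enrichment and −log10 p were restored from the Poisson relation between pileup, background and p. Of 23641 peaks, 23640 met it within 0.01, all of those on chromosomes 21 and 22 included. For −log10 q the largest placement of the point below −log10 p was taken, which that relation does not check. On 2000 simulated rows the procedure returned 100% of fold and p values. These rows were built with the same relation, so they do not test the relation itself. For 18 peaks of the list a second placement also lay within 0.01. Background is (pileup + 1) / fold − 1. Peaks were placed by summit, and densities use sequenced contigs of hg18 (IRanges 2.36.0) and bands from circlize 0.4.16 (R 4.3.3). Windows needed 50% sequence. Density intervals are exact Poisson, ratios and shares exact binomial, and medians order-statistic; they cover counting error only. Python 3.11.15, numpy 2.4.6, pandas 2.3.3, scipy 1.17.1 and matplotlib 3.10.9 were used. Gene numbers and promoters came from RefSeq (GRCh38.p14), by chromosome only, and all 31 genes checked lie on the chromosome of the band they are named for; their bands are general knowledge. By rule, each arm's 5 peaks of highest fold, 3 of highest pileup, 3 widest, 3 longest stretches, all groups, windows and bands were named. The arms, bands and alternatives were chosen with earlier results of these data known. Alternatives joined close peaks, kept the stronger ones, scaled by background, or changed the windows, the ends or the bands; those chosen after the data were seen are named with their values.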

Additional observations from a re-analysis of the deposited data

How the results depend on the processing

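The density ratio of 22q to 21q, 1.43, had 14 alternatives and stayed above 1 in 13 of them. It was 1.73 among peaks of at least median fold enrichment, 1.69 among those of at least median pileup and 1.23 with peaks scaled by the background of their arm. Of 4 alternatives added after the data were seen, it was 0.930 in Giemsa-negative bands alone, 1.12 from 30 Mb to the end and 1.09 without 5 peak-rich windows of chromosome 22, at 25, 26, 46, 47 and 48 Mb. The last of these leaves out dense windows of 22q alone, which lowers the ratio by construction, and it kept the window at 35 Mb with its 27 peaks. For the others the cause was not tested. The spacing ratio ranged from 0.428 to 0.627 over 5 alternatives and the width ratio from 1.06 to 1.13 over 5. The pileup ratio, 1.17, ranged from 1.00 to 1.17 over 7 and was 1.00 after division by the background of the arm and for peaks no narrower than the median. The variance-to-mean ratio of 21q was 2.34 in windows of 500 kb and 7.24 in windows of 2 Mb, and that of 22q ranged from 5.87 to 12.4, higher than that of 21q in each of the 5 alternatives. No paired analysis was possible because the list combines the samples and no test compares groups, and for the same reason no replicate could be left out. Without counts per sample, depth sets no limit that could be measured here.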

Other observations

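The excess of peaks in the grey gpos50 bands over the unstained bands of 22q was set beside the other chromosomes, a comparison made after the band values were seen. Of 22 chromosomes with bands of both classes and at least 1 Mb of sequence per band, 10 had the higher density in gpos50 bands, and chromosome 22 had the highest ratio, 1.63. Chromosome 15 followed at 1.60 (9.76 against 6.09 per Mb), then chromosome 20 at 1.25, where 1 gpos50 band enters. Over the chromosomes other than 21 and 22 the ratio was 0.866 (0.832 to 0.901, counting error only).

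Across windows of 1 Mb, denser windows tended to have a higher median pileup and width on both arms. The Spearman correlation between density and median pileup was 0.465 on 21q and 0.409 on 22q, and that between density and median width 0.504 and 0.427. On chromosome 20 these were 0.423 and 0.455, and on 14q 0.359 and 0.405, near those of 22q. They were 0.100 and 0.197 on 15q and 0.047 and 0.166 on 13q. All windows share the same libraries, so these are descriptions.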
